A study of Rattus norvegicus with 10 samples.

Results

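Transcripts of 10 genes of the amino acid stress response and of serine synthesis were followed in hearts of fetal rats whose mothers were normoglycemic or hyperglycemic. The 10 genes were Atf4, Atf3, Ddit3, Trib3, Chac1, Asns, Phgdh, Psat1, Psph and Shmt2. They were taken by symbol from the 18025 genes of the deposited expression table, and all 10 were found and were expressed above the filter used for testing. The set was chosen from the difference between the groups in these same libraries, seen in an earlier analysis of the FPKM values. Its values in the 2 groups are therefore given as a description, with no test, and support nothing by themselves.

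The fetuses were of the Sprague-Dawley strain, labelled wild type, and their hearts were taken at embryonic day 19.5. In the hyperglycemia (HG) group, the dams, aged 3 months, had been injected with streptozotocin, a toxin of the insulin-producing beta cells of the pancreas, on 3 days, and were used when their non-fasting blood glucose was above 16 mM. Dams of the control (CON) group, also aged 3 months, received citric acid buffer on the same schedule. Both groups of dams were mated with normoglycemic males. The paper's introduction places the hyperglycemia before pregnancy, whereas its methods place the injections after mating. When the exposure began is therefore not settled here. Each group had 5 libraries of stranded mRNA from heart tissue, CON 1 to CON 5 and HG 1 to HG 5. The labels do not say whether the 5 hearts of a group came from separate litters, so the p-values below measure the spread between these libraries only. Streptozotocin itself and the high glucose that follows it cannot be told apart in this design.

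Cells that run short of an amino acid, or that meet other stresses, phosphorylate the translation factor eIF2alpha. General translation then falls, while the mRNA of the transcription factor ATF4 is translated better. ATF4 drives genes that import and make amino acids, among them Asns, and it acts with partners of the bZIP family such as CHOP, which is encoded by Ddit3. Much of this control lies in translation, so that the amount of Atf4 mRNA is only a partial measure of ATF4 activity. Serine is made from a glycolytic intermediate by 3 enzymes in series, encoded by Phgdh, Psat1 and Psph. Mitochondrial SHMT2 then splits serine into glycine and a folate-bound carbon unit that is used for nucleotides.

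Depth was similar in the groups, and the reads on genes numbered 17639895 to 18240006 in the CON libraries and 16672876 to 19109844 in the HG libraries. Cardiac markers were high in all 10 libraries, with a summed level of 10 cardiomyocyte markers of 28084 to 29628 FPKM in CON and 23980 to 27866 FPKM in HG. The groups also differed in 10 markers of cycling cells, all 10 of which rose in HG, and 7 with median-of-ratios scaling factors, with a summed level of 522 to 563 FPKM in CON and 686 to 758 FPKM in HG (exact permutation test, two-sided, 5 against 5 libraries, p = 0.00794, the smallest that this design allows; adjusted p = 0.0397 over 10 comparisons). The cardiomyocyte sum was lower in HG with the same p and adjusted p, and 7 of its 10 markers fell while 1 rose. In RNA of heart tissue, fewer cells of a type and less RNA per cell cannot be told apart. CON 3 stood apart in liver transcripts, with a summed level of 98.7 FPKM against 7.22 to 15.5 FPKM in the other CON libraries, and the counts of the gene lists below are given with and without it where they moved. Summed markers of fibroblasts (1884 ± 118 against 1680 ± 82.8 FPKM, adjusted p = 0.0397) and of red blood cells (15332 ± 4313 against 10208 ± 1266 FPKM, adjusted p = 0.0476) were also lower in HG by the same exact permutation test of group means (5 libraries in each group, SD). So were those of liver (29.2 ± 39.0 against 6.91 ± 0.362 FPKM, adjusted p = 0.0397, medians 14.2 and 6.74 FPKM). The CON mean of liver rests largely on CON 3, and CON 1 lay within the HG range. The liver test was not repeated without CON 3. By the fit over all genes, 4 of 8 fibroblast markers fell and 2 rose, and 10 of 14 red blood cell markers fell and 3 rose. Groups without overlap were found for 2 fibroblast markers in the higher direction and 1 in the lower. For red blood cell markers these numbers were 3 and 1. Of 9 liver markers tested, 5 fell and 0 rose. Summed markers of endothelial cells, macrophages and epicardium, the share of hemoglobin reads and the reads on genes did not pass. The part of these markers in the results below was not tested.

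The promoters of 4 genes are shown because they are the genes of the set with the largest differences, Chac1, Asns and Phgdh, and the classical CHOP and ATF4 target Trib3. Each run holds 250 bases before and 50 bases after the annotated start of transcription, 5′ to 3′ on the strand of the gene, from RefSeq on the rat assembly GRCr8. Capitals mark a match to TGATGNAA, the core of the element through which C/EBP and ATF4 dimers bind, searched on both strands. Chac1 lay at chr3:126795881-126796180 on the plus strand, Trib3 at chr3:161275484-161275783 on the minus strand, Asns at chr4:36769366-36769665 on the minus strand and Phgdh at chr2:188624740-188625039 on the minus strand.
Chac1: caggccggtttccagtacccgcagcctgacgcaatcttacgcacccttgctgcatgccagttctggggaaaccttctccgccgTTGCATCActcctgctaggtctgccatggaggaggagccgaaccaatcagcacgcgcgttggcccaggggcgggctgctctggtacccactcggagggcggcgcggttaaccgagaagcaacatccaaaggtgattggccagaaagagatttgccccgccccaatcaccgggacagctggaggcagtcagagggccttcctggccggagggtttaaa
Trib3: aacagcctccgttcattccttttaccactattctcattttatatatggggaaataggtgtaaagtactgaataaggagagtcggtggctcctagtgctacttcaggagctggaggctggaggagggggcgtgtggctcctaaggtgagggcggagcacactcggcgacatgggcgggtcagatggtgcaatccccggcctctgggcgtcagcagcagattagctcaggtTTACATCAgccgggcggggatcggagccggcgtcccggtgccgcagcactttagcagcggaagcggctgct
Asns: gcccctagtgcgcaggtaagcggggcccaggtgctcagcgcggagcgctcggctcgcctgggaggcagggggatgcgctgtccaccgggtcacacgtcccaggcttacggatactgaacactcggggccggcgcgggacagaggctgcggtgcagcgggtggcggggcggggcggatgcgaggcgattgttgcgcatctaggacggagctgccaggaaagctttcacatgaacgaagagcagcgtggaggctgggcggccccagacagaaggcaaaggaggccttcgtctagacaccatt
Phgdh: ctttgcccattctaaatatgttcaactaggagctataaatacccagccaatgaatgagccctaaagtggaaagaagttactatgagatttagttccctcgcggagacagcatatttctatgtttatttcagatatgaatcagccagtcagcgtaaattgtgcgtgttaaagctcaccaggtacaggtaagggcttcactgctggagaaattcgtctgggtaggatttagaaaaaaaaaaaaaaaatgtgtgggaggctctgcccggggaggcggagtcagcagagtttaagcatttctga

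Both matches lay on the reverse strand of the gene, as TGATGCAA from 160 to 167 bases before the start of Chac1 and as TGATGTAA from 14 to 21 bases before the start of Trib3. The element was found in 2 of the 9 promoters of the set that were matched in RefSeq, which were those of all the genes but Atf3. Across 33469 rat promoters of the same length it was present in 1332, or 3.98% (Wilson 95% interval 3.78 to 4.19%, which covers counting error only). The stricter form TGATGCAA, which is 1 of the 4 forms of TGATGNAA, was present in 266 promoters, or 0.795%, and in that of Chac1. Of the holders of the element, Chac1 had separate groups in expression and Trib3 did not. Asns and Phgdh had no match in this window. Only the bases around the annotated start were searched, so an element elsewhere, or near another start, would not have been seen. GC content ranged from 42.3% for Phgdh to 67.3% for Asns, with a median of 51.7% over all promoters.

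The set split within itself. Asns, Phgdh, Psat1, Chac1 and Atf4 were higher in every HG library than in any CON library, Ddit3 was lower in HG on average, and Atf3, Trib3, Psph and Shmt2 had overlapping groups with means less than 0.1 apart on the log2 scale. By the fit over all genes, 5 of the 10 had an adjusted p under 0.05 and were higher in HG, against 28.4% of the 14542 genes tested, and 1 was lower, against 11.8%. Groups without overlap were found for the same 5 genes in the higher direction, against 19.3% of all genes, and for 0 in the lower direction, against 8.12%. Chac1, Asns and Phgdh also passed a change of more than 2-fold, against 0.866% of all genes in the higher direction, and 0 passed it in the lower direction, against 1.07%. The last count depends on the scaling, since Asns and Phgdh were under the 2-fold threshold with median-of-ratios factors (log2 fold changes of 0.96 and 0.93) and in quantile-normalized values (0.96 and 0.96). Chac1 was under it without CON 5 (0.85) and without HG 2 (0.87), and Phgdh without CON 2 (0.99), while with a pseudocount of 1 all 3 were under it (0.51 for Chac1, 0.93 for Asns and 0.99 for Phgdh). Since the set was chosen on this contrast, nothing is read from these counts.

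**Figure D1:**
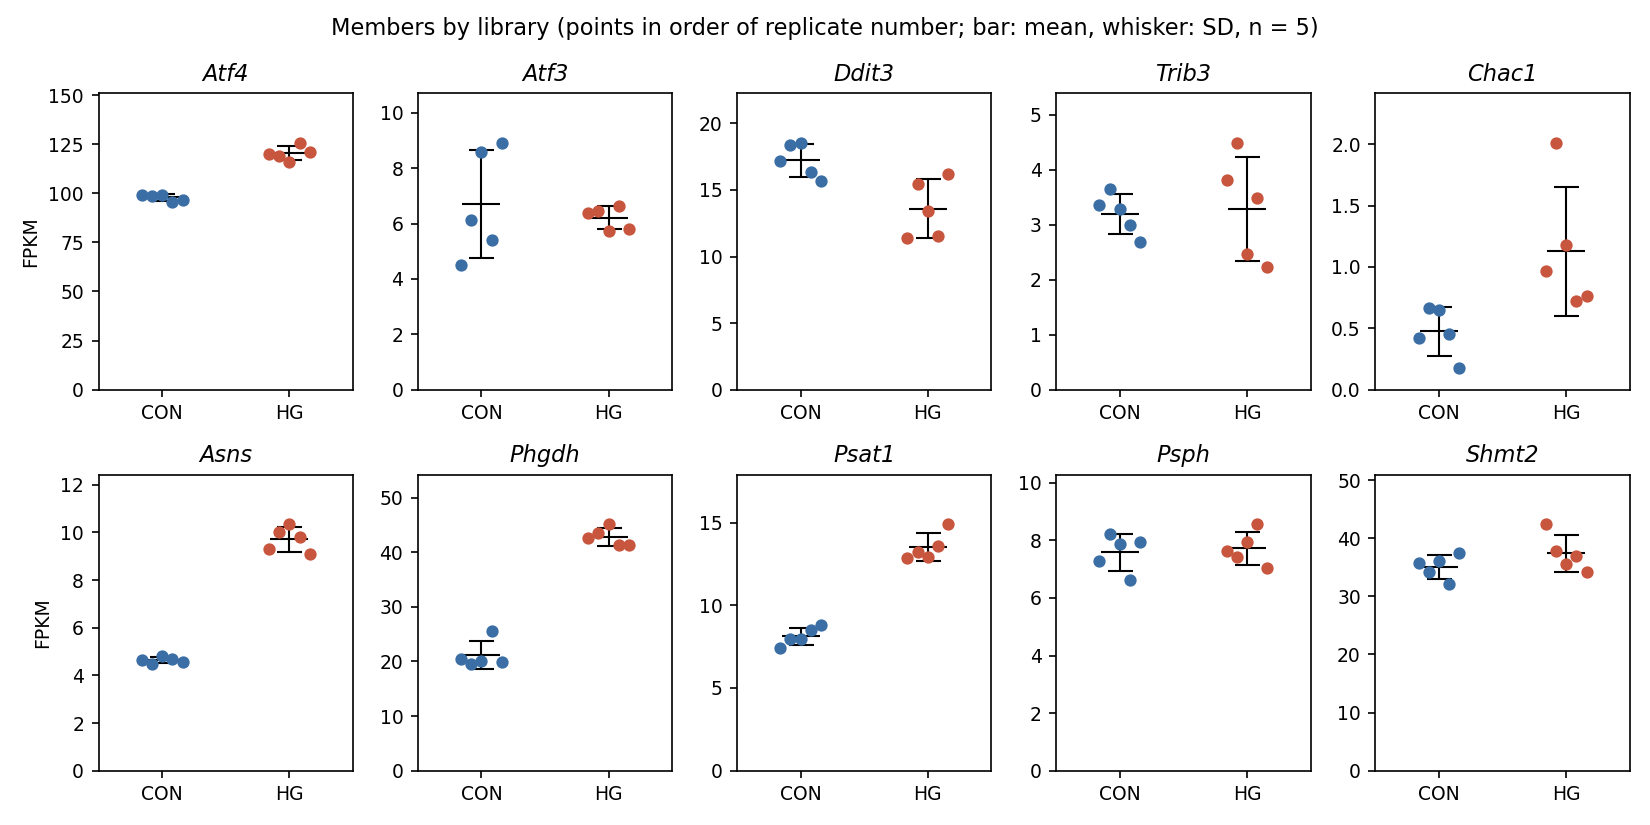
FPKM (y axes, from 0) of the 10 genes in the 5 CON and 5 HG libraries, 1 panel per gene, with points in order of replicate number, the bar at the mean and the whiskers at the SD. Asns, Phgdh, Psat1, Chac1 and Atf4 have no HG point as low as the highest CON point, while the points of the other 5 genes overlap.

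Asns encodes asparagine synthetase, which makes asparagine from aspartate and glutamine. Its level was 4.64, 4.47, 4.80, 4.69 and 4.55 FPKM in CON 1 to CON 5 and 9.30, 10.005, 10.4, 9.83 and 9.09 FPKM in HG 1 to HG 5. All 5 HG libraries were far above the highest CON library, CON 3, and the libraries of a group differed little from each other. The means of CON and HG were 4.63 ± 0.126 and 9.72 ± 0.521 FPKM (SD, n = 5 each), a ratio of 2.10 and a log2 fold change of 1.05 (SE 0.0526), or 0.96 with median-of-ratios factors. The values rest on 234 to 534 reads per library.

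Phgdh encodes phosphoglycerate dehydrogenase, the first enzyme of serine synthesis. It was measured at 20.4, 19.6, 20.2, 25.6 and 19.9 FPKM in CON and at 42.6, 43.5, 45.2, 41.4 and 41.4 FPKM in HG. CON 4 stood above the other CON libraries, and all 5 HG libraries were above it. The mean went from 21.1 ± 2.53 to 42.8 ± 1.62 FPKM (SD, n = 5 each), a ratio of 2.02 and a log2 fold change of 1.02 (SE 0.0674), which was 1.09 without CON 4 and 0.93 with median-of-ratios factors.

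Psat1 encodes phosphoserine aminotransferase, the second enzyme. Its values were 7.42, 7.98, 7.98, 8.48 and 8.78 FPKM in CON and 12.9, 13.2, 12.9, 13.6 and 14.9 FPKM in HG. No library was near the other group. The means were 8.13 ± 0.523 and 13.5 ± 0.840 FPKM (SD, n = 5 each), a ratio of 1.66 and a log2 fold change of 0.73 (SE 0.0585).

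Psph encodes phosphoserine phosphatase, which completes the synthesis of serine. It stood at 7.29, 8.22, 7.89, 6.62 and 7.95 FPKM in CON and at 7.62, 7.42, 7.94, 8.58 and 7.06 FPKM in HG. The groups overlapped almost fully, with means of 7.60 ± 0.641 and 7.72 ± 0.575 FPKM (SD, n = 5 each). The log2 fold change was 0.02 (SE 0.0712), and its sign turned to -0.06 with median-of-ratios factors and to -0.07 when the libraries were quantile-normalized.

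Shmt2, for the mitochondrial serine hydroxymethyltransferase, gave 35.7, 34.1, 36.1, 32.1 and 37.4 FPKM in CON and 42.5, 37.7, 35.5, 37.0 and 34.2 FPKM in HG. HG 1 was above the highest CON library, CON 5, HG 2 was barely above it, and the other HG libraries lay within the CON range. The means were 35.1 ± 2.02 and 37.4 ± 3.16 FPKM (SD, n = 5 each) and the log2 fold change was 0.09 (SE 0.0592), near the median of 0.09 over all genes.

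Along the pathway, the difference was thus present at the first and second enzymes and not seen at the third or at SHMT2. Ratios of 2 genes within a library, in which any scaling of the library cancels, show the same. Phgdh stood to Psph at 2.82 ± 0.605 in CON, with a range of 2.38 to 3.87, and at 5.57 ± 0.432 in HG, with a range of 4.82 to 5.87 (SD, n = 5 each). The ratio of Psat1 to Psph was 1.08 ± 0.124 in CON and 1.76 ± 0.212 in HG, and that of Phgdh to Shmt2 was 0.607 ± 0.108 in CON and 1.15 ± 0.102 in HG. All 3 ratios were higher in each HG library than in any CON library. They combine genes chosen for these values and are a description.

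Atf4 was the most abundant of the 10 genes and the steadiest within a group. It was measured at 99.4, 98.7, 99.1, 95.8 and 96.6 FPKM in CON and at 120.0, 119.1, 115.8, 125.7 and 120.9 FPKM in HG. The groups were apart, although the difference was small. The means were 97.9 ± 1.59 and 120.3 ± 3.57 FPKM (SD, n = 5 each), a ratio of 1.23 and a log2 fold change of 0.30 (SE 0.0308), or 0.21 with median-of-ratios factors.

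Chac1 encodes an enzyme that cleaves glutathione and was the least abundant gene of the set. Its level was 0.422, 0.664, 0.650, 0.455 and 0.180 FPKM in CON and 0.967, 2.01, 1.18, 0.722 and 0.764 FPKM in HG. The lowest HG library, HG 4, was only a little above the highest CON library, CON 2, and HG 2 was well above the rest. The means were 0.474 ± 0.198 and 1.13 ± 0.525 FPKM (SD, n = 5 each), and the log2 fold change was 1.09 (SE 0.306) from 5 to 58 reads per library. The size depended on the pseudocount of 0.1, since the log2 fold change was 0.51 with a pseudocount of 1 and 1.26 with 0.01.

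Ddit3 encodes CHOP, a transcription factor that ATF4 induces and that promotes cell death under lasting stress of the endoplasmic reticulum. It was measured at 17.2, 18.4, 18.5, 16.4 and 15.7 FPKM in CON and at 11.4, 15.4, 13.4, 11.5 and 16.2 FPKM in HG. HG 5 lay within the CON range, whereas HG 1, HG 3 and HG 4 lay well below it and HG 2 just below it. The means were 17.2 ± 1.25 and 13.6 ± 2.20 FPKM (SD, n = 5 each), a log2 fold change of -0.35 (SE 0.0977). Set against Atf4 in the same library, Ddit3 stood at 0.176 ± 0.0107 in CON, with a range of 0.162 to 0.187, and at 0.113 ± 0.0194 in HG, with a range of 0.0916 to 0.134.

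Trib3 encodes a pseudokinase that ATF4 and CHOP induce and that binds the kinase AKT. It stood at 3.36, 3.64, 3.29, 2.99 and 2.68 FPKM in CON and at 3.80, 4.48, 2.46, 3.48 and 2.22 FPKM in HG. The HG libraries were spread to both sides of the CON range. The means were 3.19 ± 0.364 and 3.29 ± 0.944 FPKM (SD, n = 5 each), and the log2 fold change was 0.00 (SE 0.170). Asns, another ATF4 target, stood to Trib3 at 1.47 ± 0.178 in CON and at 3.16 ± 0.932 in HG, without overlap.

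Atf3 encodes a stress-induced bZIP factor that represses or activates its targets. Its values were 4.51, 6.13, 8.60, 5.40 and 8.91 FPKM in CON and 6.38, 6.47, 5.72, 6.65 and 5.80 FPKM in HG. All HG libraries lay inside the CON range, which was wide. The means were 6.71 ± 1.96 and 6.20 ± 0.416 FPKM (SD, n = 5 each) and the log2 fold change was -0.07 (SE 0.161), which was 0.04 without CON 3. Among immediate early genes, which are induced within minutes of handling or stimulation, 3 of 23 tested rose and 4 fell, with a median log2 fold change of -0.03. With median-of-ratios factors 1 rose and 4 fell, without CON 3 the counts were 4 and 3, and without CON 5 they were 3 and 2. Gadd45b had the smallest adjusted p of those that rose (log2 fold change 0.34, SE 0.0842, limma adjusted p = 0.0068) and Klf2 of those that fell (-0.49, SE 0.130, adjusted p = 0.010). Fos, named after its values were seen, gave 1.95, 1.24, 2.57, 3.01 and 4.20 FPKM in CON and 1.68, 1.78, 1.63, 1.32 and 1.51 FPKM in HG. As for Atf3, its values were highest in CON 5.

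**Figure D2:**
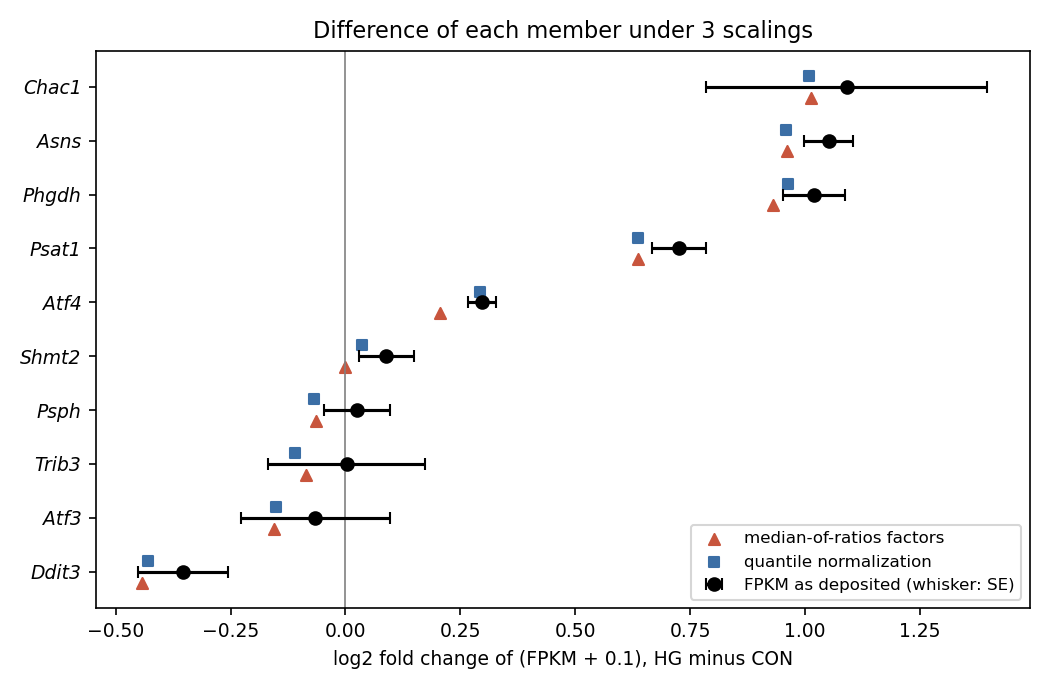
Log2 fold change of (FPKM + 0.1), HG minus CON (x axis), for the 10 genes (y axis), with black circles for FPKM as deposited and their SE as whiskers, triangles for median-of-ratios factors and squares for quantile normalization. Asns, Phgdh, Psat1, Chac1 and Atf4 lie above 0 under all 3 scalings and Ddit3 below 0, while Psph and Trib3 change sign and Shmt2 lies at 0 with median-of-ratios factors.

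On the scale of FPKM, which is per length, the order of the levels in CON was Atf4, Shmt2, Phgdh, Ddit3, Psat1, Psph, Atf3, Asns, Trib3 and Chac1. The neighbours from Psat1 to Asns had overlapping ranges there, and the other neighbours did not. In HG the order was Atf4, Phgdh, Shmt2, Ddit3, Psat1, Asns, Psph, Atf3, Trib3 and Chac1. Phgdh and Shmt2 overlapped in HG, as did Ddit3 and Psat1, and the other neighbours were apart. Asns stood below Psph in all 5 CON libraries and above it in all 5 HG libraries.

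The genes whose profile over the 10 libraries was most like that of Asns were Zfp69 (log2 fold change 1.10, root mean square difference 0.0862 on the log2 scale), Hmga2 (1.08, difference 0.0869) and Rpp25 (0.84, difference 0.114). Those most like Phgdh were Macroh2a2 (0.97, difference 0.0917), Acot1 (1.04, difference 0.102) and Hmga2 (1.08, difference 0.105). Hmga2, a chromatin protein of proliferating fetal cells, was common to both. The profiles contain the difference between the groups that chose the set, so this likeness is a description.

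Genes around the set were taken from 12 lists of the pathway, covering 187 tested genes, of which 18 stood in more than 1 list. In the limma fit over all 14542 genes, 101 of them had an adjusted p under 0.05, 62 higher and 39 lower in HG. The split depended on the scaling. It was 61.4% higher as deposited, 41.4% with median-of-ratios factors, where 36 rose and 51 fell, and 45.2% in quantile-normalized values, where 38 rose and 46 fell. Without CON 3, 55 rose and 34 fell. Over all genes, 70.7% of the 5836 genes with an adjusted p under 0.05 were higher as deposited, 47.1% of 4822 with median-of-ratios factors and 53.0% of 4932 in quantile-normalized values, and the median log2 fold change was 0.09, 0.01 and 0.02. The counts of each list below stand beside 28.4% higher and 11.8% lower over all genes tested.

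Other known targets of ATF4 were mostly higher. Of 27 tested genes, 20 rose, 2 fell and 5 did not pass, with a median log2 fold change of 0.31. With median-of-ratios factors 14 rose and 2 fell and the median was 0.22. Without CON 3, 19 rose and 1 fell. Mthfd2, a mitochondrial folate enzyme, rose from 15.7 ± 1.18 to 21.4 ± 1.56 FPKM (SD, n = 5 each; log2 fold change 0.45, SE 0.0639, limma adjusted p = 0.00021). Its values were 16.3, 16.7, 15.0, 13.9 and 16.3 FPKM in CON and 22.3, 23.1, 21.5, 20.9 and 19.0 FPKM in HG, without overlap. Pck2, the mitochondrial PEP carboxykinase, rose from 20.5 to 27.6 FPKM (log2 fold change 0.42, SE 0.0640, adjusted p = 0.00032), and Sesn2, a sestrin that restrains mTORC1, from 5.22 to 7.15 FPKM (0.45, SE 0.0685, adjusted p = 0.00033). Vldlr, a lipoprotein receptor, fell from 11.3 to 8.71 FPKM (-0.38, SE 0.0528, adjusted p = 0.00019). Cth, which makes cysteine, fell from 1.15 to 0.771 FPKM (-0.51, SE 0.182, adjusted p = 0.043), a call lost in 9 of the 20 alternatives (adjusted p from 0.024 to 0.10). Adm2 and Gdf15, secreted peptides named after their values were seen, had the largest increases of the list. Adm2 rose from 0.238 to 0.620 FPKM (log2 fold change 1.10, SE 0.233, adjusted p = 0.0027) on 3 to 18 reads, and Gdf15 from 0.867 to 1.72 FPKM (0.89, SE 0.193, adjusted p = 0.0030) on 12 to 34 reads. Slc7a11, the cystine carrier, was under the filter at 0.0303 and 0.0446 FPKM.

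Genes of the unfolded protein response of the endoplasmic reticulum went the other way. Of 22 tested genes, 19 fell, 1 rose and 2 did not pass, and their median log2 fold change was -0.46. Of these genes, 17 had groups without overlap in the lower direction, against 8.12% of all genes. With median-of-ratios factors 19 fell and 0 rose. Without CON 3, 18 fell and 0 rose. Hspa5, the chaperone BiP, was measured at 559, 534, 554, 502 and 446 FPKM in CON and at 251, 263, 307, 284 and 328 FPKM in HG. No HG library reached the lowest CON library, and the means of 519 and 287 FPKM gave a log2 fold change of -0.86 (SE 0.0792, limma adjusted p = 9.8e-06). Sdf2l1, Hyou1 and Manf, which act with BiP in the lumen, fell by 1.05 (SE 0.0768, adjusted p = 1.9e-06), 0.83 (SE 0.0645, adjusted p = 2.9e-06) and 0.68 (SE 0.0550, adjusted p = 3.9e-06) on the log2 scale. The transcription factor Xbp1 fell from 69.5 ± 6.40 to 48.3 ± 2.76 FPKM (SD, n = 5 each; -0.52, SE 0.0639, adjusted p = 7.6e-05). The summed cardiomyocyte, fibroblast, red blood cell and liver markers given above were also lower in HG. Of the single markers, 1 of cardiomyocytes, 2 of fibroblasts and 3 of red blood cells rose. The part of these markers was not tested. Edem1 rose by a log2 fold change of 0.13 (SE 0.0437, adjusted p = 0.037), which 10 of the 20 alternatives did not call (adjusted p from 0.022 to 0.58). Hspa5, Xbp1 and Ddit3 are all induced when proteins fold poorly in the endoplasmic reticulum. The ratio of Hspa5 to Atf4 within a library was 5.30 ± 0.410 for CON and 2.39 ± 0.280 for HG (SD, n = 5 each). This ratio uses a gene of the set, chosen for these values, and is a description.

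**Figure D3:**
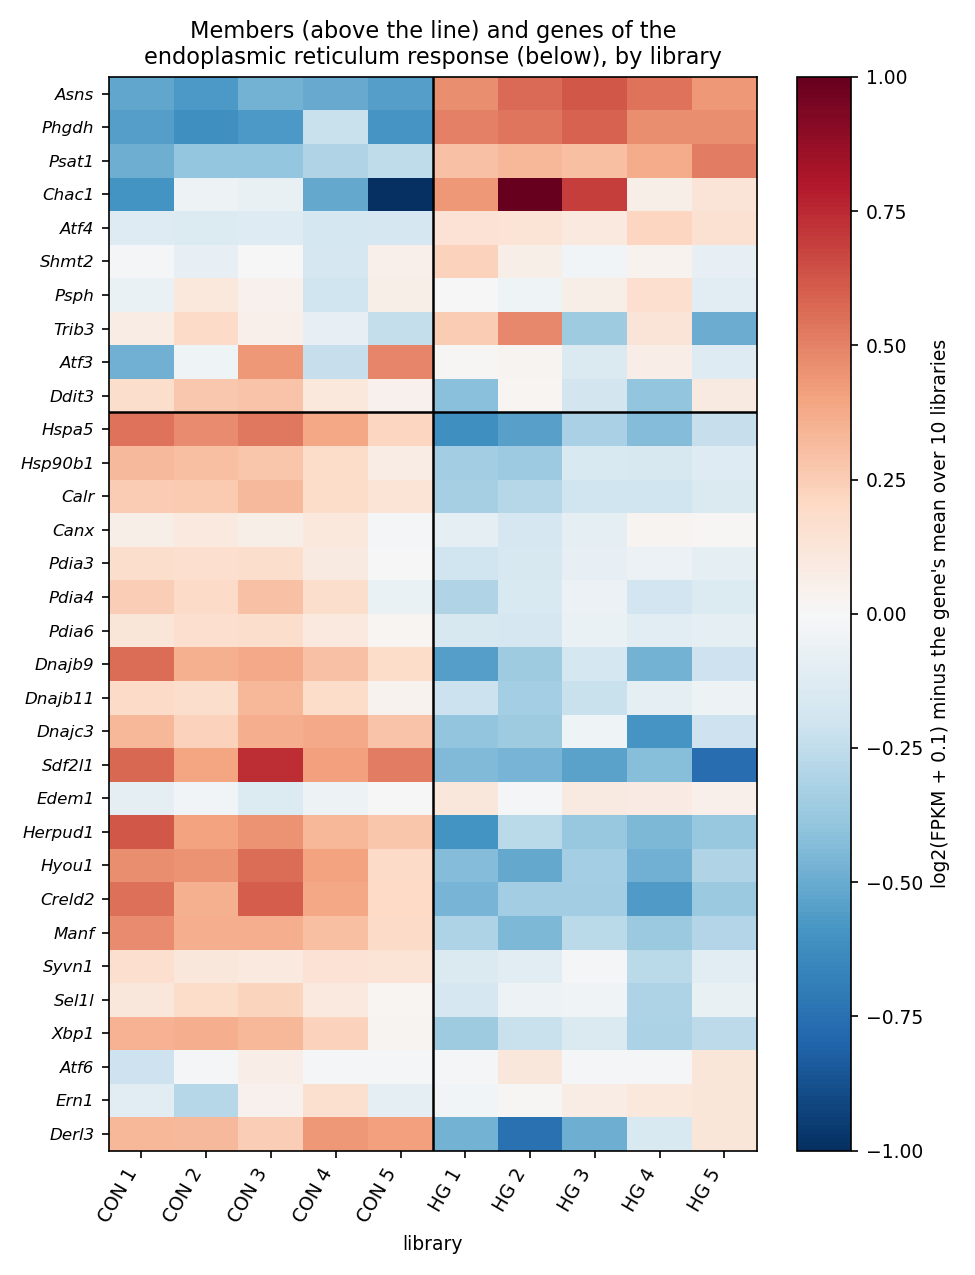
Colour shows log2(FPKM + 0.1) minus the mean of the gene over the 10 libraries, limited to -1 to 1, for the 10 genes (rows above the line) and 22 genes of the endoplasmic reticulum response (rows below it) in each library (columns). Asns, Phgdh, Psat1, Chac1 and Atf4 are lower in the 5 CON columns and higher in the 5 HG columns, and Ddit3 and 19 of the 22 genes below the line are on average lower in HG.

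Genes around eIF2alpha went both ways. Of 17 tested genes for its kinases, phosphatases and partners, 7 rose and 2 fell, and the median log2 fold change was 0.07, while 4 rose and 3 fell with median-of-ratios factors and 6 rose and 1 fell without CON 3. The lower count was 0 without CON 4, HG 2 or HG 3. Eif2ak4, the kinase GCN2 that senses uncharged tRNA, rose, with 5.14 to 6.87 FPKM in CON and 7.28 to 8.54 FPKM in HG (log2 fold change 0.37, SE 0.0757, limma adjusted p = 0.0023), and Impact, an inhibitor of GCN2, rose from 8.87 to 12.7 FPKM (0.51, SE 0.0816, adjusted p = 0.00043). Eif2s1, for eIF2alpha itself, rose from 64.5 to 77.8 FPKM (0.27, SE 0.0601, adjusted p = 0.0039). Eif2b4 and Dele1 had log2 fold changes of -0.14 (SE 0.0464, adjusted p = 0.027) and -0.15 (SE 0.0532, adjusted p = 0.041), lost in 5 and 10 of the 20 alternatives (adjusted p from 0.0026 to 0.067 and from 0.0065 to 0.098). Among 14 bZIP partners and relatives, 2 rose and 1, Xbp1, fell, with a median of 0.04, and with median-of-ratios factors 0 rose and 2 fell. Without CON 3, 1 rose and 1 fell. Atf1 (0.14, SE 0.0390, adjusted p = 0.013) and Cebpg (0.13, SE 0.0470, adjusted p = 0.039) rose as deposited and were not called with median-of-ratios factors (adjusted p = 0.36 and 0.51, in ranges over the alternatives of 0.011 to 0.36 and 0.021 to 0.52).

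Around serine, uptake and one-carbon genes rose more often than they fell in the values as deposited. The same held over all genes tested, with 28.4% higher and 11.8% lower. With median-of-ratios factors the counts of both lists were nearly even. Of 24 tested genes of serine uptake and use, 10 rose and 3 fell (median 0.10, and 5 rose and 4 fell with median-of-ratios factors, and 10 and 2 without CON 3). The mitochondrial serine carrier Sfxn1 rose from 13.6 ± 0.394 to 17.3 ± 0.566 FPKM (SD, n = 5 each; log2 fold change 0.35, SE 0.0399, limma adjusted p = 4.6e-05), its relative Sfxn3 from 10.9 to 14.9 FPKM (0.45, SE 0.0565, adjusted p = 8.9e-05) and the amino acid carrier Slc1a4 from 10.7 to 14.9 FPKM (0.46, SE 0.0870, adjusted p = 0.0013). Sdsl, a serine dehydratase-like enzyme, fell from 2.58 to 1.24 FPKM (-1.04, SE 0.192, adjusted p = 0.0012). Cbs, which joins serine to homocysteine, fell from 0.551 to 0.205 FPKM (-1.09, SE 0.308, adjusted p = 0.014) on 3 to 35 reads. Of 26 folate and glycine cleavage genes, 12 rose and 2 fell (median 0.17), or 6 and 5 with median-of-ratios factors and 9 and 1 without CON 3. Mthfd1l rose from 4.28 to 6.18 FPKM (0.52, SE 0.0757, adjusted p = 0.00022). Dld, a subunit of the glycine cleavage system and of pyruvate dehydrogenase, fell from 103 to 82.4 FPKM (-0.32, SE 0.0525, adjusted p = 0.00049), and Mtrr had a log2 fold change of -0.15 (SE 0.0537, adjusted p = 0.042), lost in 7 alternatives (adjusted p from 0.0051 to 0.11).

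Of 6 regulators of serine synthesis, 3 rose and 0 fell. Mycn, a MYC family factor of fetal growth, rose from 12.9 ± 0.876 to 20.6 ± 2.55 FPKM (SD, n = 5 each; log2 fold change 0.66, SE 0.0802, limma adjusted p = 6.6e-05), with 12.6, 12.3, 13.9, 13.7 and 11.9 FPKM in CON and 23.8, 20.5, 22.1, 17.4 and 18.9 FPKM in HG. Ehmt2, a histone methyltransferase, rose by 0.20 (SE 0.0482, adjusted p = 0.0054; 0.082 with median-of-ratios factors, in a range over the alternatives of 0.0017 to 0.082), and Mycl rose from 0.0907 to 0.222 FPKM on 2 to 17 reads (0.77, SE 0.218, adjusted p = 0.014). Both the folate genes and Mycn moved in libraries whose cycling markers also rose, as given above, and that part was not tested.

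**Figure D4:**
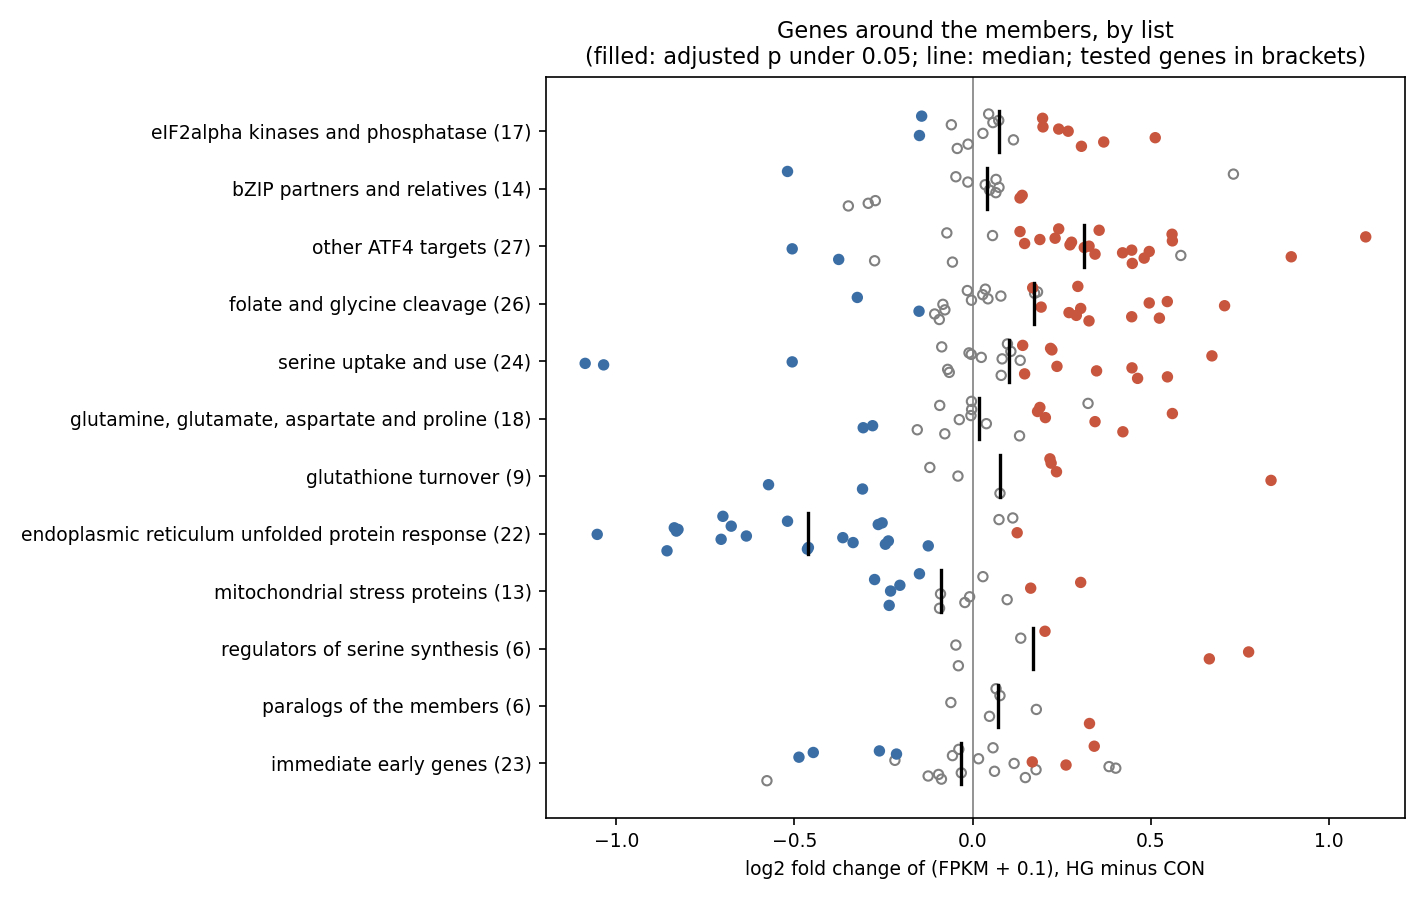
Log2 fold change of (FPKM + 0.1), HG minus CON (x axis), for each tested gene of the 12 lists (rows, with the number of tested genes), filled where the adjusted p was under 0.05 and with a line at the median. The medians run from -0.46 for the endoplasmic reticulum response to 0.31 for the other ATF4 targets.

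Genes of glutamine, glutamate, aspartate and proline, the substrates and products around ASNS, were split, with 6 of 18 higher and 2 lower and a median of 0.02 (3 and 5 with median-of-ratios factors, 5 and 2 without CON 3, where the median was -0.01, and 4 and 2 without CON 5). Nars1, which charges asparagine onto tRNA, rose from 37.7 to 43.4 FPKM (log2 fold change 0.20, SE 0.0332, limma adjusted p = 0.00050) and Pycr1, of proline synthesis, from 8.15 to 12.1 FPKM (0.56, SE 0.106, adjusted p = 0.0014). The aspartate aminotransferases Got1 and Got2, which are abundant in the heart, fell from 187 to 151 FPKM (-0.31, SE 0.0304, adjusted p = 1.7e-05) and from 350 to 288 FPKM (-0.28, SE 0.0422, adjusted p = 0.00029). The cardiomyocyte sum given above was also lower in HG, with 7 of its 10 markers lower and 1 higher. The part of these markers was not tested.

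Of 9 genes of glutathione turnover, the pathway of Chac1, 4 rose and 2 fell (2 and 3 with median-of-ratios factors). Ggt7 rose from 0.489 to 0.957 FPKM (log2 fold change 0.84, SE 0.150, limma adjusted p = 0.00096), Gss by 0.22 (SE 0.0432, adjusted p = 0.0017) and Gsr by 0.22 (SE 0.0583, adjusted p = 0.011; 0.12 with median-of-ratios factors, in a range over the alternatives of 0.0035 to 0.12). Ggt5 fell by 0.57 (SE 0.127, adjusted p = 0.0037) and Ggct by 0.31 (SE 0.0996, adjusted p = 0.027), the latter lost in 5 alternatives (adjusted p from 0.0097 to 0.065). Of 13 mitochondrial stress proteins, 2 rose and 5 fell, with a median of -0.09. With median-of-ratios factors 1 rose and 7 fell and the median was -0.18, and without CON 3, 1 rose and 4 fell. Htra2, a protease of the intermembrane space, rose from 29.2 to 36.0 FPKM (0.30, SE 0.0419, adjusted p = 0.000165), and Timm17a, Dnaja3 and Afg3l2 fell by 0.27 (SE 0.0420, adjusted p = 0.00033), 0.23 (SE 0.0380, adjusted p = 0.00056) and 0.20 (SE 0.0368, adjusted p = 0.00099). Yme1l1 rose by 0.16 (SE 0.0499, adjusted p = 0.021), lost in 5 alternatives (adjusted p from 0.0068 to 0.26).

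Among 6 tested paralogs of the set, 1 rose. Shmt1, the cytosolic partner of Shmt2, was at 5.95, 7.16, 6.74, 6.34 and 7.76 FPKM in CON and at 9.70, 7.90, 8.64, 7.85 and 8.57 FPKM in HG, which did not overlap (log2 fold change 0.33, SE 0.0800, limma adjusted p = 0.0065). The others did not pass, with log2 fold changes of 0.18 for Trib1 (SE 0.1004, adjusted p = 0.18), -0.06 for Trib2 (SE 0.0635, adjusted p = 0.48), 0.07 for Jdp2 (SE 0.0832, adjusted p = 0.56), 0.08 for Chac2 (SE 0.143, adjusted p = 0.70) and 0.05 for Atf5 (SE 0.0901, adjusted p = 0.71). Some genes of the set may share reads with neighbours. On GRCr8 the span of Ddit3 overlaps Mars1 and LOC134479709, that of Shmt2 overlaps Ndufa4l2 and that of Atf3 overlaps Garin4, and the strand setting of the counting is not given in the sources used here, so that the levels of these 3 genes are less certain than those of the other 7.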

How the data were processed

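RNA from fetal hearts was made into stranded mRNA libraries (TruSeq). The labels and the paper's methods name heart samples, whereas a figure legend of the paper names isolated cardiomyocytes of fetuses. The submitters' processing notes name fastp, HISAT2, HTSeq, R 3.2.0 and the rat build mRatBN7.2, while the strand setting of the counting is not given in the sources used here. The paper's methods speak of a library from pooled RNA, whereas the 10 columns differ from each other. The authors deposited FPKM, which are reads divided by gene length and by library size, for 18025 genes with NCBI Gene identifiers, and 0 per-sample columns were left unused. Every value was a whole multiple of that of 1 read within a tolerance of 0.02 reads in 100% of genes, which gave the depth.

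FPKM were read with Python 3.11.15, numpy 2.4.6, pandas 2.3.3 and scipy 1.17.1, and drawn with matplotlib 3.10.9. Genes were kept for testing where their mean FPKM reached 0.1, which left 14542 and set aside 3483. Values were transformed to log2(FPKM + 0.1) and fitted with limma 3.58.1 in R 4.3.3 (moderated linear model with a trend, no covariate, Benjamini-Hochberg adjustment over all genes tested). The pseudocount shrinks the fold changes of genes with low FPKM. DESeq, which the study names, takes counts and was not used. The model was tested on simulated data. A change of more than 2-fold means a log2 fold change beyond 1 or -1 in a gene whose adjusted p was under 0.05, as in the study.

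The members and the gene lists were chosen with earlier results of these data known. Genes were named by rule: the members, their paralogs, up to 3 genes higher and 3 lower per list by smallest adjusted p, list genes under the filter and the 3 profiles nearest to Asns and to Phgdh. Some genes that the rule names are not reported here. Folr1, Sds, Aspg and Ggt1 were under the filter, and Sptlc3, Agxt, Asnsd1 and Prodh were not analysed here. Sums and shares per library were compared between the groups by exact permutation tests (two-sided). Alternatives were pseudocounts of 1 and 0.01, no filter or one at a mean FPKM of 1, quantile normalization, median-of-ratios factors, library totals without hemoglobin genes, no trend, a replicate block, limma-voom on recovered reads, and leaving out 1 of the 10 libraries at a time. Promoters came from RefSeq on GRCr8, which is not the build of the files, so that no coordinate of the files was used.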

Additional observations from a re-analysis of the deposited data

Results flagged for a closer look

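In 40 groups of 5 values checked for a single library far from the others, 3 stood out, and chance alone gives about 1 in 20. The highest CON value of Phgdh was 25.6 FPKM in CON 4, against 19.6 to 20.4 FPKM in the other CON libraries, so that the gap was 0.856 of the range of the group. It lay below all HG libraries, and the log2 fold change of Phgdh was 1.09 without it.

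The summed level of liver markers in CON was 98.7 FPKM in CON 3, against 7.22 to 15.5 FPKM in the other CON libraries (gap 0.910 of the range). Without CON 3, the log2 fold changes of the members were 1.06 for Asns, 1.01 for Phgdh, 0.72 for Psat1, 0.30 for Atf4 and 1.21 for Chac1. The summed level of cycling markers in HG was 758 FPKM in HG 4, against 686 to 702 FPKM in the other HG libraries (gap 0.776 of the range). HG 4 had the highest Atf4 and Psph of the HG group and the lowest Chac1.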

How the results depend on the processing

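Genes with an adjusted p under 0.05 and a more than 2-fold change numbered 282, against 64 with a pseudocount of 1, 134 with a filter at a mean of 1 FPKM, 426 with limma-voom on recovered reads and 276 to 305 with 1 library left out. Genes with an adjusted p under 0.05 numbered 5836, or 5059 to 5620 with 1 library left out. Of these, 4127 were higher, against 2271 with median-of-ratios factors, 2615 after quantile normalization and 3539 to 4004 with 1 library left out, where 1503 to 1641 were lower against 1709. Listed genes higher in HG numbered 62, against 36 with median-of-ratios factors, 38 after quantile normalization and 51 to 60 with 1 library left out, where 32 to 43 were lower against 39. For the members, 192 log2 fold changes under the alternatives moved by less than the spread between libraries and 7 by more. Asns, Phgdh, Psat1, Chac1, Atf4 and Ddit3 kept their sign in every alternative that gave a value. Since the set was chosen on this contrast, nothing is read from that. With 1 library left out, the log2 fold change ranged from 1.03 to 1.07 for Asns, 0.99 to 1.09 for Phgdh, 0.69 to 0.75 for Psat1, 0.85 to 1.22 for Chac1, 0.28 to 0.31 for Atf4 and -0.42 to -0.29 for Ddit3. Chac1 was under the filter at a mean of 1 FPKM, so that it has no value there. The labels number the libraries of both groups, but same-numbered libraries deviated together with correlations of -0.13 to 0.11, and 1 of 10 libraries correlated best with its own number. With a replicate block, 281 genes passed both thresholds, 5096 had an adjusted p under 0.05, and 57 listed genes were higher and 34 lower. Depth limits Chac1 among the members, which had at most 58 reads in a library, and listed genes such as Adm2, Cbs, Gdf15 and Mycl, which had at most 35.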
